A study of Homo sapiens with 18 samples.

Results

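The 10 enzyme genes followed here belong to nucleotide synthesis: CAD, DHODH, UMPS and CTPS1 of the pyrimidine route, and PPAT, GART, PFAS, PAICS, ATIC and IMPDH2 of the purine route. They were chosen by name as 10 of the 59251 genes in the deposited count tables, and all 10 were among the 21615 genes that passed a filter on low counts. The 18 libraries were made from HAP1 cells grown in IMDM, a human line of leukaemic origin that keeps a nearly haploid genome. Unmodified parental HAP1 gave 3 libraries with 15 ng/mL doxycycline and 3 without it. A line labelled as deleted for SARS2 and carrying a transgene for SARS2 with 1 FLAG tag (∆SARS2+SARS2-1xFLAG) gave 3 libraries with the same dose of doxycycline and 3 each without it for 3, 6 and 9 days. SARS2 encodes the mitochondrial seryl-tRNA synthetase, and the series set cells that express it against cells after its depletion.

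Per the labels' protocols, all cells were kept in doxycycline until its removal, and the time without it in the parental line is not given. The kind of deletion, the transgene's promoter and whether the line is 1 clone are not stated, nor whether replicates were separate cultures. The p-values therefore measure only the spread between these libraries, which may be technical. The total was 66850705 to 111123481 counts per library. Levels are CPM, a gene's count relative to its library total after scaling by trimmed mean of M-values. A gene is said to have risen or fallen where edgeR's quasi-likelihood test gave an adjusted p under 0.05 over all 21615 genes, and fold changes are log2 values ± SE with 3 libraries per group.

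SARS2 RNA in the deleted line was no lower without doxycycline than with it. It rose by 0.38 ± 0.10 at day 3 (adjusted p = 0.014) and by 0.79 ± 0.10 at day 9 (adjusted p = 2.7e-06), while day 6 did not pass. With doxycycline in both lines, its fold change in the deleted against the parental line was -0.87 ± 0.10 (adjusted p = 3.5e-06). With doxycycline the deleted line held 24.2 ± 0.923 CPM (SD, n = 3), against 31.6 ± 0.986 in the libraries labelled day 3, 24.7 ± 1.30 at day 6 and 41.8 ± 7.16 at day 9. Whether reads of the transgene, or of RNA left from the locus, are counted under SARS2 is not stated and was not tested, so the level cannot check the labels, and the groups below are named by their labels. Among markers of other cell types, GATA1, HBG1, CD3E and MPO of 11 haematopoietic markers had no count in any library, and the summed level of the 11 was 0.659 to 1.35 CPM. At these low levels 2 of 4 haematopoietic markers tested rose and none fell at day 9. Of these, the rise of CD34 was lost without doxycycline replicate 1 or 3 or day 9 replicate 3. The summed levels of 8 epithelial markers were 39.1 to 43.5 CPM for the doxycycline libraries of the deleted line and 60.6 to 69.6 CPM in the libraries labelled day 9. KRT18 alone made up 29.9 to 34.4 and 53.0 to 59.6 CPM of them, and of 6 epithelial markers tested 1 (KRT18) rose and 2 (CLDN4 and CLDN7) fell at day 9. Those of 8 mesenchymal markers were 689.6 to 766 CPM and 849 to 1129 CPM in the same groups, where 3 of 6 tested rose and 1 fell. Of all tested genes, 22.6% rose and 23.8% fell at day 9. The fall of COL1A1 and the rise of CDH2 were lost with only the groups compared and without day 9 replicate 3. The part of these markers in the results below was not tested, and in bulk RNA fewer expressing cells and less RNA per cell cannot be told apart.

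Cells build pyrimidines by first making the ring from glutamine, bicarbonate and aspartate and then attaching it to ribose phosphate, whereas the purine ring is built step by step on ribose phosphate itself. DHODH sits in the inner mitochondrial membrane and hands its electrons to ubiquinone, so pyrimidine synthesis depends on the respiratory chain. The purine route consumes formyl groups carried by folate, many of which start from serine broken down in mitochondria. Several of these enzymes are known to be induced in growing cells, and CAD is a classical target of the transcription factor MYC.

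All of these genes were well covered, with at least 2278 counts in every library, the lowest being for DHODH. Per kilobase of exonic length, the mean level over the 18 libraries was highest for IMPDH2, at 281 CPM per kilobase. PAICS followed at 82.1, GART at 50.0, CAD at 36.7, PFAS at 31.9, PPAT at 30.5, CTPS1 at 25.6, ATIC at 16.2, UMPS at 10.5 and DHODH at 6.46. The ranking by length-scaled level therefore did not separate the routes, since CAD lay among the purine enzymes while DHODH and UMPS were the lowest of the 10.

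**Figure D1:**
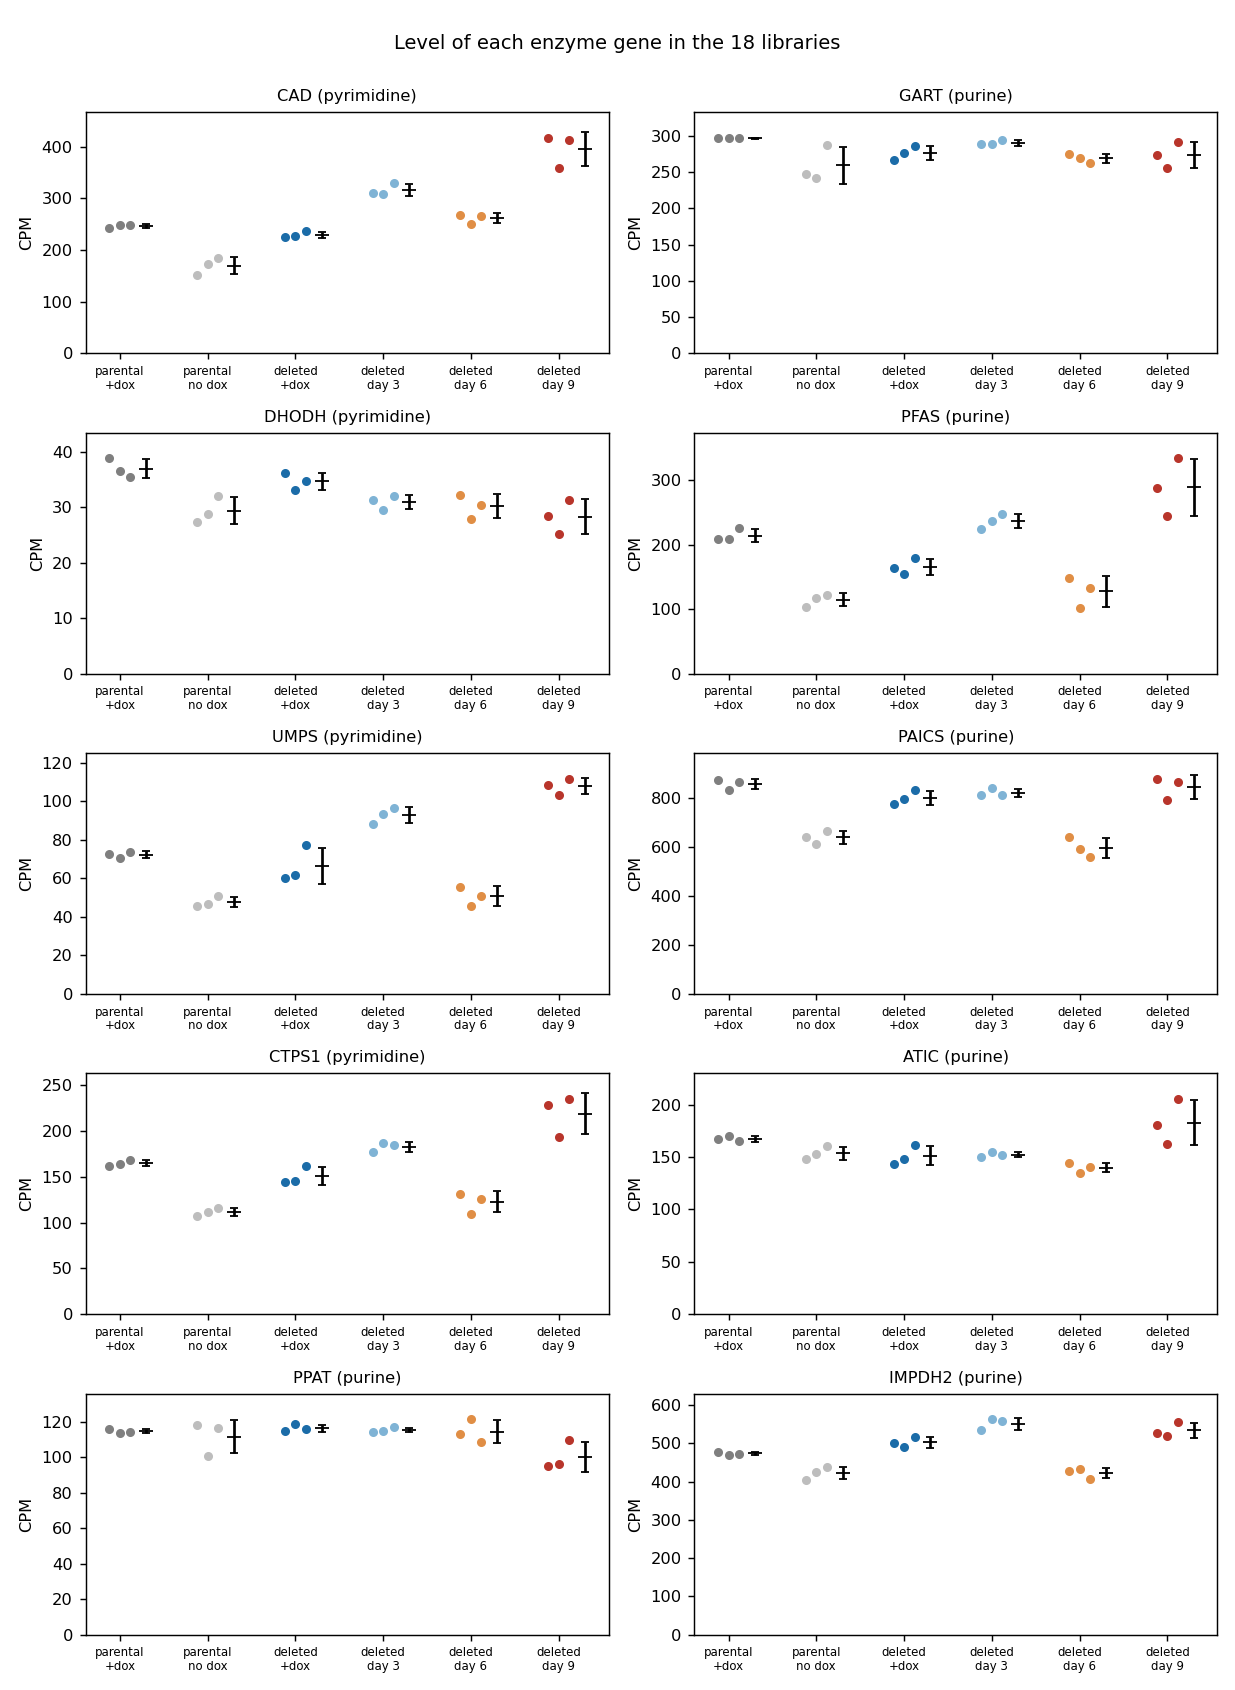
Level in CPM (y axis, from 0) of each of the 10 genes in the 18 libraries (x axis, 6 groups; points are libraries, the bar beside them mean ± SD). CAD, UMPS, CTPS1 and PFAS were highest in the libraries labelled day 9, whereas DHODH and PPAT were lowest there.

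Over the 6 groups, the highest group mean over the lowest was 2.52 for PFAS, 2.33 for CAD, 2.26 for UMPS and 1.96 for CTPS1, and 1.14 to 1.44 for the other 6 genes. UMPS, CTPS1 and PFAS had the same order of groups: day 9, day 3, parental with doxycycline, deleted with doxycycline, day 6 and parental without doxycycline. In that order the last pair overlapped for all 3 genes. The 2 doxycycline groups overlapped as well for UMPS. For PFAS, day 3 overlapped both day 9 and the parental line with doxycycline. CAD differed in that day 6 ranked above both doxycycline groups, and none of its neighbouring groups overlapped. DHODH ran from 37.0 ± 1.69 CPM (SD, n = 3) in the parental line with doxycycline to 28.3 ± 3.11 CPM at day 9, and its 4 groups without doxycycline overlapped from neighbour to neighbour.

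CAD (chr2:27217369-27243943, plus strand, in the GRCh38 coordinates of the count tables, as for the genes below) carries the first 3 activities of the pyrimidine route (carbamoyl phosphate synthetase, aspartate transcarbamylase and dihydroorotase) in a single protein. In the deleted line its level was 225, 226 and 236 CPM with doxycycline, 310, 308 and 330 CPM in the libraries labelled day 3, 267, 251 and 266 CPM at day 6 and 417, 358 and 412 CPM at day 9. No library of any day overlapped the doxycycline group, and the order over the 4 groups was day 9, day 3, day 6, doxycycline. CAD rose by 0.46 ± 0.07 at day 3 (adjusted p = 0.00056), a 1.38-fold change. Its rise by day 9 was 0.79 ± 0.07, or 1.73-fold (adjusted p = 7.2e-08). At day 6 it rose by 0.19 ± 0.07 with an adjusted p of 0.0496, and that call was lost without any 1 of the 6 libraries (0.17 to 0.21), without the low-count filter (0.18) and after removal of the trend with gene span and length (0.13).

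UMPS (chr3:124730452-124749273, plus strand) makes uridine monophosphate from orotate in the last 2 steps of the route. Its level was 60.2, 61.7 and 77.4 CPM with doxycycline, 88.2, 93.5 and 96.6 CPM at day 3, 55.7, 45.5 and 50.9 CPM at day 6 and 109, 103 and 112 CPM at day 9. The groups labelled day 3 and day 9 lay above every doxycycline library and day 6 lay below them. UMPS rose by 0.48 ± 0.09 at day 3 (adjusted p = 0.0017), fell by 0.39 ± 0.09 at day 6 (adjusted p = 0.0026) and rose by 0.70 ± 0.09 at day 9 (adjusted p = 3.1e-06). Set directly against day 6, day 9 was higher by 1.09 ± 0.09, a 2.13-fold difference (adjusted p = 5.8e-09).

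CTPS1 (chr1:40979696-41012565, plus strand) converts UTP to CTP with glutamine as the nitrogen donor. It was measured at 144, 145 and 162 CPM with doxycycline, 177, 187 and 184 CPM at day 3, 132, 109.6 and 126 CPM at day 6 and 228, 194 and 235 CPM at day 9. As with UMPS, both day 3 and day 9 were above all doxycycline libraries and day 6 was below them. CTPS1 rose by 0.28 ± 0.08 at day 3 (adjusted p = 0.021), fell by 0.30 ± 0.08 at day 6 (adjusted p = 0.0065) and rose by 0.54 ± 0.08 at day 9 (adjusted p = 1.1e-05). Its day 3 rise no longer passed without doxycycline replicate 1 (0.25) or 2 (0.26) or day 3 replicate 2 (0.26) or 3 (0.27), nor its day 6 fall without doxycycline replicate 3 (-0.24).

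DHODH (chr16:72008744-72027659, plus strand), the mitochondrial enzyme that oxidises dihydroorotate to orotate between CAD and UMPS, did not rise at any day. Its level was 36.3, 33.1 and 34.7 CPM with doxycycline, 31.3, 29.6 and 32.1 CPM at day 3, 32.2, 28.0 and 30.4 CPM at day 6 and 28.5, 25.2 and 31.4 CPM at day 9. Every library without doxycycline was below every doxycycline library of this line, while the 3 days overlapped each other. Its fold change at day 3 was -0.16 ± 0.09 (adjusted p = 0.23), and day 6 gave -0.20 ± 0.09 (adjusted p = 0.091). With only the 2 groups compared in the fit, both passed (-0.16 with an adjusted p of 0.045 and -0.21 with 0.042). By day 9 it fell by 0.29 ± 0.09 (adjusted p = 0.0088), which no longer passed once day 9 replicate 2 was left out (-0.21).

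Within a library, the ratio of CAD to DHODH counts does not depend on the scaling of libraries. The ratio was 6.21, 6.83 and 6.80 with doxycycline, 9.89, 10.4 and 10.3 at day 3, 8.29, 8.95 and 8.75 on day 6 and 14.6, 14.2 and 13.1 at day 9. It was higher at each labelled day than in any doxycycline library, and the 4 groups did not overlap. UMPS to DHODH moved from 1.92 ± 0.290 (SD, n = 3) with doxycycline to 3.00 ± 0.174 at day 3, 1.68 ± 0.0504 at day 6 and 3.83 ± 0.275 at day 9.

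**Figure D2:**
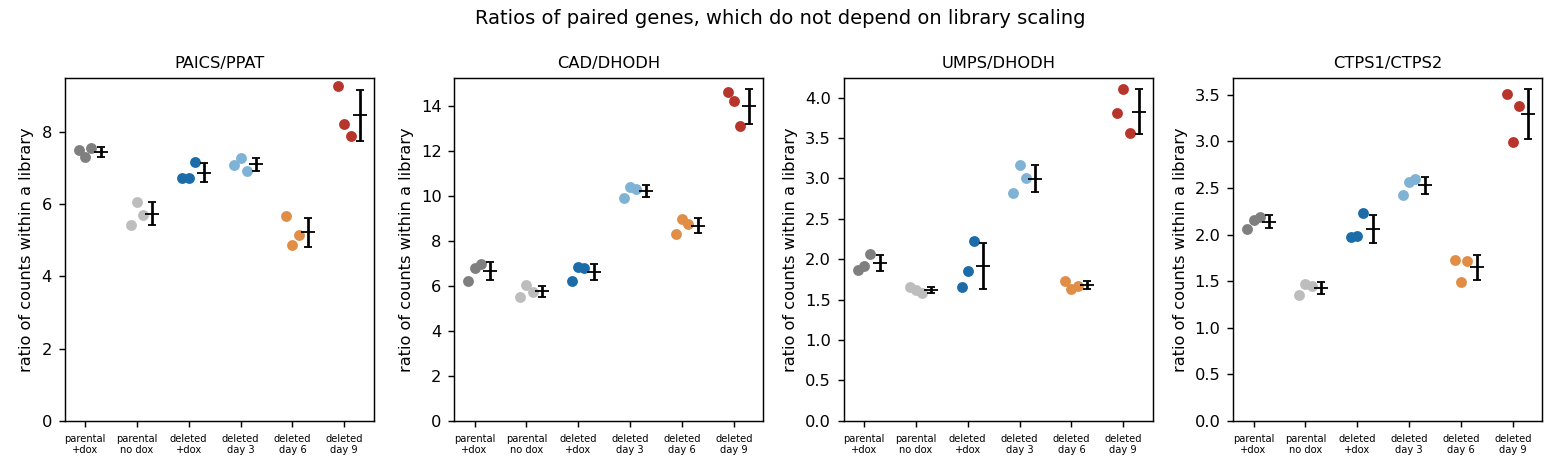
Ratio of the counts of 2 genes within each library (y axis, from 0) by group (x axis; points are libraries, bars mean ± SD). PAICS to PPAT runs from 5.22 at day 6 to 8.45 at day 9, CAD to DHODH reaches 14.0 at day 9, and CTPS1 to its paralog CTPS2 runs from 1.42 in the parental line without doxycycline to 3.29 at day 9.

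The DNA just before the start sites of the 4 genes with the widest range over the groups is printed here. This group of 4, CAD, UMPS, CTPS1 and the purine enzyme PFAS, was picked after the values were seen. All 4 rose at days 3 and 9, but at day 6 CAD rose by 0.19 while UMPS, CTPS1 and PFAS fell. The sequences are from RefSeq (GRCh38.p14), 120 bases on the plus strand ending at the base before the start site, at chr2:27217249-27217368 for CAD, chr3:124730332-124730451 for UMPS, chr1:40979576-40979695 for CTPS1 and chr17:8249169-8249288 for PFAS. The PFAS stretch lies inside the span counted for PFAS, which begins at 8247608. Capitals mark GGGCGG or its reverse complement CCGCCC, the core of the GC box, and TGACGT, the core of the cyclic AMP response element.
CAD: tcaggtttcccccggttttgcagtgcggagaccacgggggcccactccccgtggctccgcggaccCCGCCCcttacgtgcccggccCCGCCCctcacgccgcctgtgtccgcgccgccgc
UMPS: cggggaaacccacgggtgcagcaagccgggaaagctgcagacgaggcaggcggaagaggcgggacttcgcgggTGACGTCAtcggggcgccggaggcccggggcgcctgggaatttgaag
CTPS1: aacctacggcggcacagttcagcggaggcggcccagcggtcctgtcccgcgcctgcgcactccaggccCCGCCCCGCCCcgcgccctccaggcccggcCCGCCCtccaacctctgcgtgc
PFAS: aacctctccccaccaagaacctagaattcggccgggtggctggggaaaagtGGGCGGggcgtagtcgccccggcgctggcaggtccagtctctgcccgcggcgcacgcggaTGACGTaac
The 4 stretches did not share 1 of these motifs: CAD and CTPS1 held GC boxes only, UMPS held TGACGT only, and PFAS held both.

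Promoter windows of 300 bases (250 before to 50 after a start site) were found in RefSeq for 9 of the 10 genes (all but IMPDH2), in 14 windows. Windows of 1 gene can overlap, as 2 of GART do. Counting matches on both strands, GGGCGG was in 9 of the 14 windows (8 genes), against 45.0% of all 35116 promoter windows, and TGACGT in 4 of the 14 (UMPS, PFAS and 2 of GART), against 7.98%. CACGTG, the E-box bound by MYC and its partners, was in 4 of the 14 (1 each of DHODH, PPAT, PAICS and ATIC), against 7.26%, and the windows of PPAT and PAICS hold the same site. No window of CAD, UMPS, CTPS1, PFAS or GART held it, but bases further than 50 after a start site were not searched. The ATF4-type sequence TGATGNAA was in 0 of the 14, against 3.62%. GGGCGG and TGACGT were added after the sequences had been seen, and a match to letters in these windows is a description only.

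PFAS (chr17:8247608-8270486, plus strand), which adds an amidine nitrogen from glutamine in an early step of the purine route, moved through the days as UMPS and CTPS1 did. Its level was 164, 155 and 179 CPM with doxycycline, 225, 237 and 248 CPM at day 3, 149, 101 and 133 CPM at day 6 and 289, 245 and 334 CPM at day 9. Day 3 and day 9 lay above every doxycycline library and day 6 below, with day 6 replicate 2 the lowest of its group. PFAS rose by 0.51 ± 0.12 at day 3 (adjusted p = 0.0076), fell by 0.38 ± 0.12 at day 6 (adjusted p = 0.021) and rose by 0.80 ± 0.12 at day 9 (adjusted p = 1.7e-05). Its day 6 fall no longer passed without doxycycline replicate 3 (-0.32) or without day 6 replicate 2 (-0.25).

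PPAT commits ribose phosphate to the purine route, and PAICS carries a later pair of steps. In the count tables they span chr4:56393362-56435615 and chr4:56410507-56464578 and, in RefSeq, start back to back, PPAT at 56435615 on the minus strand and PAICS at 56435752 on the plus strand. The 136 bases between the start sites, chr4:56435616-56435751 on the plus strand (RefSeq, GRCh38.p14), are shown because both genes share them, with GGGCGG in capitals.
PPAT to PAICS: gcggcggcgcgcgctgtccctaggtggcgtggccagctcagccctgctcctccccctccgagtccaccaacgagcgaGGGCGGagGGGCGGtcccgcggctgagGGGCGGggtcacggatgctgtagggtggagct
The stretch held 3 copies of GGGCGG. The E-box of this pair lies just inside PAICS, its first base 40 bases after the PAICS start site, and is printed within chr4:56435780-56435801. Beside it stand that of DHODH (within chr16:72008573-72008602) and the first of the 2 of ATIC (within chr2:215312001-215312030). CACGTG is in capitals and all are on the plus strand. They are shown because windows of these genes held CACGTG, and no link to their changes was tested.
PAICS: ctgtatttgctgCACGTGgaaa
DHODH: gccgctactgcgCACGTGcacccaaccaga
ATIC: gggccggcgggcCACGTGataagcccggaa

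PPAT and PAICS were measured at different levels and did not keep a fixed ratio. PPAT was at 115, 119 and 116 CPM with doxycycline, 114, 115 and 117 CPM at day 3, 113, 121 and 109 CPM at day 6 and 94.9, 96.0 and 109.7 CPM at day 9. Each day 9 library lay below every doxycycline library, while days 3 and 6 overlapped the control range. PPAT fell by 0.22 ± 0.07 at day 9 (adjusted p = 0.013), which did not hold when day 9 replicate 1 was dropped (-0.18), and its fold change was -0.01 ± 0.07 at day 3 and -0.03 ± 0.07 at day 6.

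PAICS stood at 774, 797 and 831 CPM with doxycycline, 811, 839 and 809.6 CPM at day 3, 638, 591 and 559.5 CPM at day 6 and 878, 789.6 and 864.5 CPM at day 9. Day 6 was apart from and below the other 3 groups, which overlapped. PAICS fell by 0.43 ± 0.06 at day 6 (adjusted p = 4.7e-05), with changes of 0.03 ± 0.06 at day 3 and 0.08 ± 0.06 at day 9 that did not pass. The count ratio of PAICS to PPAT was 6.72, 6.72 and 7.18 with doxycycline, 7.09, 7.29 and 6.93 at day 3, 5.66, 4.87 and 5.15 at day 6 and 9.26, 8.23 and 7.88 at day 9. Day 3 overlapped the doxycycline libraries, day 6 lay below both and day 9 above both. In the count annotation the 2 genes overlap by 25109 bases on opposite strands, because an upstream PAICS transcript begins within PPAT, and no source used here gives the strand setting of the counting, so how overlapping reads were split is uncertain.

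GART (chr21:33503931-33542893, minus strand) carries several early steps of the purine route in a single protein, and its group means differed least of the 10 genes. Its levels ran from 267 to 287 CPM with doxycycline, 288 to 294 CPM at day 3, 263 to 275 CPM at day 6 and 255 to 292 CPM at day 9. The ranges were within 1.14-fold between the highest and lowest group means of the whole series. Its fold changes were 0.07 ± 0.06 at day 3, -0.04 ± 0.06 at day 6 and -0.02 ± 0.06 at day 9, and none passed the test (adjusted p = 0.52, 0.68 and 0.87).

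ATIC (chr2:215312059-215368592, plus strand) closes the purine ring by the last 2 steps to inosine monophosphate. It was measured at 144, 149 and 162 CPM with doxycycline, 150.1, 155 and 152 CPM at day 3, 144, 135 and 141 CPM at day 6 and 180.3, 163 and 205 CPM at day 9. Day 9 lay just above the doxycycline libraries, and days 3 and 6 overlapped them. ATIC rose by 0.27 ± 0.07 at day 9 (adjusted p = 0.0036). Its change at day 6, -0.11 ± 0.07, did not pass (adjusted p = 0.25) but was -0.20 and past the threshold after removal of the span and length trend (adjusted p = 0.04). ATIC overlaps FN1 by 7728 bases on the opposite strand, and FN1 was at 6.39 to 13.9 CPM.

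IMPDH2 (chr3:49024325-49029398, minus strand) diverts inosine monophosphate towards guanine nucleotides and was the most abundant of the 10 per kilobase. Its level was 502, 489.5 and 517.5 CPM with doxycycline, 534, 563 and 557 CPM at day 3, 427, 432 and 407 CPM at day 6 and 528, 519 and 555 CPM at day 9. Day 6 lay below and days 3 and 9 above the doxycycline libraries. IMPDH2 fell by 0.25 ± 0.05 at day 6 (adjusted p = 0.0012), which became -0.17 (adjusted p = 0.052) after removal of the span and length trend. Neither 0.13 ± 0.05 at day 3 (adjusted p = 0.091) nor the day 9 change of 0.09 ± 0.05 (adjusted p = 0.18) passed, although that at day 3 did with library size alone, with only the 2 groups compared and with DESeq2 (0.14 in each).

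**Figure D3:**
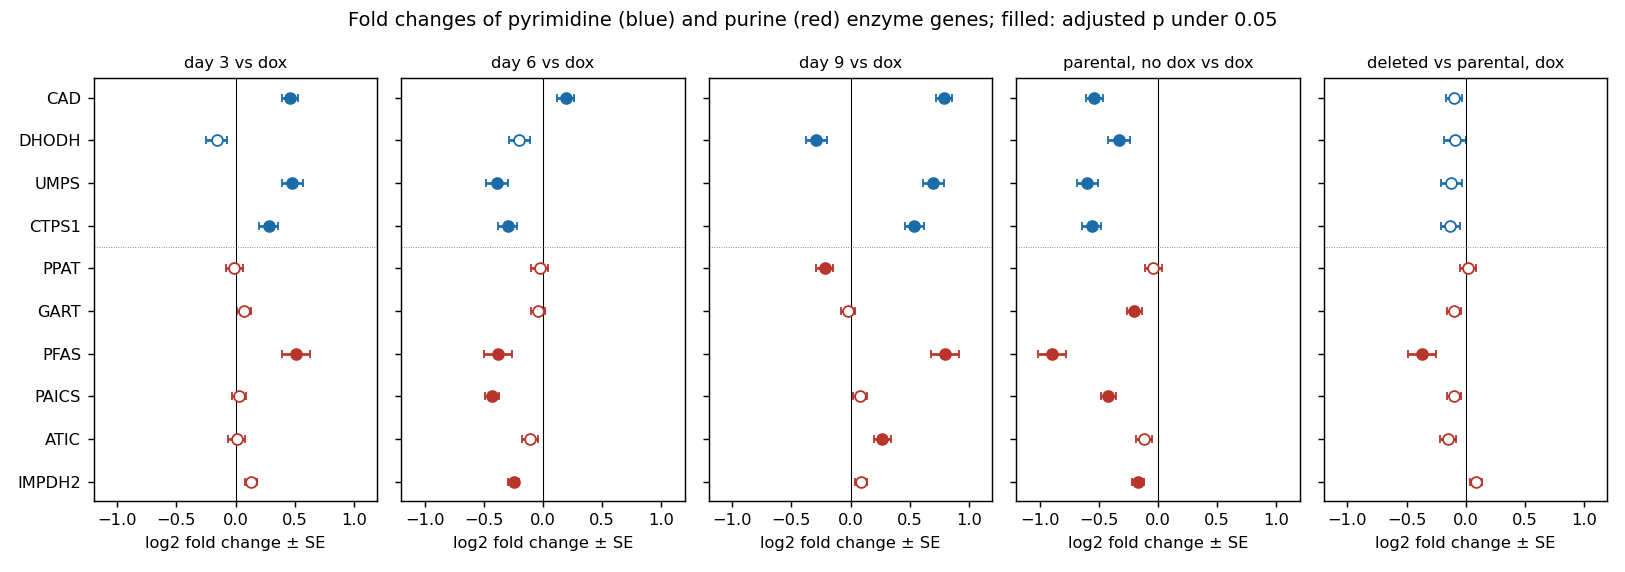
Log2 fold change ± SE (x axis) of each gene (y axis) in 5 comparisons; blue marks the 4 pyrimidine and red the 6 purine genes, and filled points passed an adjusted p of 0.05. CAD, UMPS, CTPS1 and PFAS lie to the right at days 3 and 9 and to the left in the parental line without doxycycline, where PFAS is at -0.90.

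Counted by route, 3 of 4 pyrimidine and 1 of 6 purine genes rose at day 3 and none fell, where 6.5% of all tested genes rose and 6.87% fell. With only the groups compared DHODH fell and IMPDH2 rose as well. At day 6, 1 pyrimidine gene (CAD) rose and 2 fell, while 3 purine genes (PFAS, PAICS and IMPDH2) fell, against 14.0% of all genes in each direction. At day 9, 3 pyrimidine genes rose and DHODH fell, while PFAS and ATIC rose and PPAT fell among the purine genes, against 22.6% of all genes that rose and 23.8% that fell. These 3 comparisons share the same 3 doxycycline libraries. The 5 falls at day 6 became 3 without doxycycline replicate 3, and the 2 falls at day 9 became 1 without day 9 replicate 1 or 2.

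The median fold change of the 4 pyrimidine genes was 0.37 at day 3, -0.25 at day 6 and 0.62 at day 9, and that of the 6 purine genes was 0.05, -0.18 and 0.08, beside medians within 0.01 of 0 for all tested genes. Between days 6 and 9, 7 of the 10 genes rose and PPAT fell, against 28.6% of all genes that rose and 30.2% that fell. The rises were largest for PFAS (1.18 ± 0.12), UMPS (1.09 ± 0.09), CTPS1 (0.84 ± 0.08) and CAD (0.60 ± 0.07), followed by PAICS (0.50 ± 0.06), ATIC (0.39 ± 0.07) and IMPDH2 (0.34 ± 0.05). The fall of PPAT (-0.19 ± 0.07, adjusted p = 0.021) did not pass when leaving out day 6 replicate 2 (-0.13) or day 9 replicate 1 (-0.15) or 2 (-0.16).

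The mean log2 CPM of the 4 pyrimidine genes minus that of the 6 purine genes was -1.48, -1.51 and -1.44 in the doxycycline libraries of the deleted line. It was -1.34, -1.36 and -1.30 at day 3, -1.42, -1.52 and -1.39 at day 6 and -1.16, -1.23 and -1.23 at day 9. Days 3 and 9 lay above the doxycycline range and day 6 overlapped it. The difference was larger by 0.14 at day 3, by 0.04 at day 6 and by 0.27 at day 9, with a pooled SD between replicates of 0.03, 0.05 and 0.04. No test was made of these means. The split did not follow the routes gene by gene, since the day 9 value was 0.51 without DHODH and 0.40 without PFAS, and without CAD it was 0.15.

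**Figure D4:**
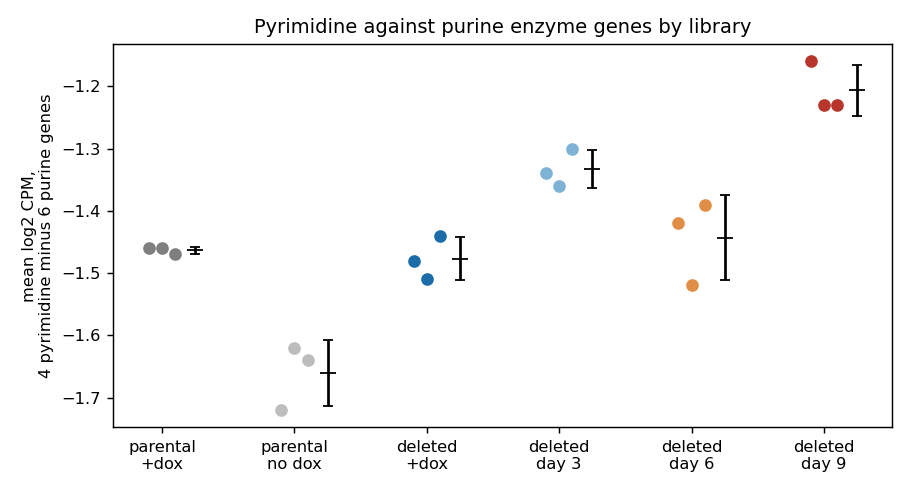
Mean log2 CPM of the 4 pyrimidine genes minus that of the 6 purine genes (y axis) in each library by group (x axis; bars mean ± SD, n = 3). The means run from -1.66 in the parental line without doxycycline to -1.21 in the libraries labelled day 9.

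In the parental line, libraries without doxycycline were set against those with it, and the time without the drug is not given. Of the 10 genes, 8 were lower without doxycycline and none was higher, where 18.4% of all genes fell and 21.0% rose. CAD went from 242, 248 and 248 CPM with doxycycline to 151, 174 and 184 CPM without it, with no overlap, and fell by 0.54 ± 0.07 (adjusted p = 1.2e-05). PFAS went from 208, 209 and 225 CPM to 104, 118 and 123 CPM, again without overlap, and fell by 0.90 ± 0.12 (adjusted p = 1.1e-05). UMPS fell by 0.60 ± 0.09 (72.2 ± 1.68 to 47.6 ± 2.75 CPM; SD, n = 3), CTPS1 by 0.56 ± 0.08 and PAICS by 0.42 ± 0.06. The fall of DHODH was 0.33 ± 0.09 (adjusted p = 0.0047), that of GART 0.20 ± 0.06 and that of IMPDH2 0.17 ± 0.05.

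Changes that did not pass in the parental line were those of PPAT (-0.04 ± 0.07) and ATIC (-0.12 ± 0.07, which was -0.26 with an adjusted p of 0.0076 after removal of the span and length trend). The call for GART was lost without any 1 of 5 libraries (parental without doxycycline replicates 1 and 2 and all 3 with it), at -0.16 to -0.20, and that for IMPDH2 without the low-count filter (-0.17) and after removal of the trend (-0.05). The pyrimidine-minus-purine mean fell by 0.20 in the parental line, with a pooled SD of 0.04. With doxycycline in both lines, 1 of the 10 passed the test, PFAS, lower in the deleted line by -0.37 ± 0.12 (adjusted p = 0.032), where 9.97% of all genes were lower and 9.32% higher. That call was lost without any 1 of 5 libraries (-0.32 to -0.39), while without doxycycline replicate 3 of the deleted line it held and UMPS was lower as well (-0.25, adjusted p = 0.039). With only these 2 groups in the fit CTPS1 (-0.13, adjusted p = 0.047) and ATIC (-0.15, adjusted p = 0.028) also passed.

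The change without doxycycline in the deleted line was then set against that in the parental line as an interaction term, with the limit that the parental time without doxycycline is not given. At day 3, 7 of 10 genes had a higher change in the deleted line (18.6% of all genes) and none a lower one (20.9%). The difference was 1.00 ± 0.10 for CAD, 1.08 ± 0.12 for UMPS, 0.84 ± 0.11 for CTPS1 and 1.41 ± 0.17 for PFAS, all with adjusted p at or below 8.1e-06. It was 0.46 ± 0.08 for PAICS, 0.30 ± 0.07 for IMPDH2 and 0.26 ± 0.09 for GART. The last was lost without parental doxycycline replicate 3 (0.26), deleted doxycycline replicate 1 (0.24) or day 3 replicate 3 (0.25).

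At day 6 the lines differed for CAD (0.73 ± 0.10, adjusted p = 0.00029) and PFAS (0.52 ± 0.16, adjusted p = 0.043), against 5.49% of all genes higher and 7.14% lower. The call for PFAS was lost without any 1 of 8 of the 12 libraries (0.42 to 0.54). For PAICS the difference between the lines was -0.00 ± 0.08, and for UMPS it was 0.21 ± 0.12 (adjusted p = 0.28). At day 9, 7 of 10 genes had a higher change in the deleted line (24.4% of all genes) and none a lower one (27.3%). The difference was 1.32 ± 0.10 for CAD, 1.30 ± 0.12 for UMPS, 1.10 ± 0.11 for CTPS1 and 1.70 ± 0.17 for PFAS, a 3.25-fold difference. It was 0.50 ± 0.08 for PAICS, 0.40 ± 0.10 for ATIC and 0.25 ± 0.07 for IMPDH2. DHODH had the smallest difference at day 9, 0.04 ± 0.12 (adjusted p = 0.82). PPAT did not pass, but was lower with library size alone (-0.29, adjusted p = 0.0063) and without parental replicate 2 lacking doxycycline (-0.23, adjusted p = 0.036) or day 9 replicate 3 (-0.25, adjusted p = 0.022). GART was higher without parental replicate 3 lacking doxycycline (0.26) or day 9 replicate 2 (0.23).

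Nuclear RNA and gene span were read in the same comparisons, and their part in the results was not tested. NEAT1, a nuclear RNA that builds paraspeckles, was at 6.86 CPM in the deleted line given doxycycline, and at 5.03, 16.3 and 2.90 CPM on days 3, 6 and 9. The parental line had 3.94 CPM with and 14.6 CPM without the drug. NEAT1 rose by 1.25 at day 6, fell by 1.24 at day 9 and rose by 1.89 in the parental comparison, while day 3 did not pass (adjusted p = 0.114). MALAT1, another nuclear RNA, was at 1170, 932, 1274 and 1107 CPM in the 4 deleted-line groups in the same order, and none of the 3 days passed (adjusted p = 0.108, 0.529 and 0.654). It rose by 0.60 in the parental comparison. Across 21615 genes, Spearman's rho of the fold change with gene span was -0.06, 0.18 and -0.14 on days 3, 6 and 9 and 0.14 for the parental comparison, as a description across genes that share libraries. After removal of the trend with span and exonic length, the day 9 change was 0.71 for CAD, 0.60 for UMPS, 0.49 for CTPS1, 0.72 for PFAS and -0.39 for DHODH. For IMPDH2, the shortest of the 10 at 5074 bases, the interaction became 0.17 at day 3 and 0.04 at day 9 and no longer passed.

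Some partners of these enzymes did and others did not move alike. CTPS1 has a paralog, CTPS2, chosen here as its partner and not by the rule for named genes. CTPS2 was at 73.0 ± 0.573 CPM (SD, n = 3) with doxycycline and 66.4 ± 2.64 CPM at day 9, where it fell by 0.14, a call lost under 8 of the alternatives. The CTPS1 to CTPS2 count ratio was 1.97, 1.98 and 2.23 with doxycycline, 2.42, 2.56 and 2.60 at day 3, 1.73, 1.49 and 1.72 on day 6 and 3.51, 2.99 and 3.38 at day 9. No 2 of these 4 groups overlapped. IMPDH1, the paralog of IMPDH2, rose by 0.32 at day 9 (adjusted p = 0.0013), and the IMPDH2 to IMPDH1 ratio was 4.03 ± 0.0897 with doxycycline and 3.46 ± 0.247 at day 9.

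The counts of listed genes that follow stand beside 14.0% of all genes that rose and 14.0% that fell at day 6, and 22.6% and 23.8% at day 9. Of 10 other genes of de novo synthesis, 5 fell and 1 (ADSS1) rose at day 6, and 3 rose and 5 fell at day 9. ADSL, which acts on an intermediate between PAICS and ATIC, fell by 0.40 ± 0.09 at day 6 and rose by 0.42 ± 0.09 at day 9 (adjusted p = 0.00083). ADSS1, the muscle-type adenylosuccinate synthase, rose by 0.75 ± 0.21 at day 6 and fell by 1.98 ± 0.23 at day 9, at 4.79 ± 0.349 and 0.719 ± 0.175 CPM (SD, n = 3). Without day 6 replicate 2 its day 6 rise no longer passed (0.68, adjusted p = 0.052). PRPS2, which makes the ribose phosphate donor used by both routes, fell by 0.28 ± 0.06 at day 6 and by 0.33 ± 0.06 at day 9.

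Of 9 genes that make DNA precursors (deoxynucleotide synthesis), 7 rose and none fell at day 9, where 22.6% of all genes rose, with a median of 0.39, and 4 fell at day 6, where 14.0% of all genes fell, with a median of -0.24. RRM2, the regulated subunit of ribonucleotide reductase, was at 316 ± 21.8 CPM (SD, n = 3) with doxycycline, 243 ± 7.29 at day 6 and 500.2 ± 30.7 at day 9. It fell by 0.38 ± 0.06 and rose by 0.66 ± 0.06 (adjusted p = 1.5e-07). At day 9 TYMS, which makes thymidylate, rose by 0.39 ± 0.05, DTYMK, the thymidylate kinase, by 0.62 ± 0.11, and DCTD, the deoxycytidylate deaminase, by 0.45 ± 0.06.

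Among 14 tested salvage genes of 15, 7 fell and 1 rose at day 6, and 5 rose and 2 fell at day 9. The 7 became 4 without doxycycline replicate 3 or day 6 replicate 3, and the 1 rise became 0 without doxycycline replicate 2. The 2 falls at day 9 became 1 without any of the 3 doxycycline libraries or day 9 replicate 2. APRT, which recovers adenine, fell by 0.74 ± 0.06 at day 6 (adjusted p = 1.6e-07). At day 9 the thymidine kinase TK1 rose by 0.95 ± 0.08 (adjusted p = 6.5e-08), and the uridine-cytidine kinases UCK1 and UCKL1 rose by 0.77 ± 0.07 and 0.61 ± 0.05. Of 12 tested nucleotide kinases, 4 fell and 2 rose at day 6 and 4 rose and 3 fell at day 9, the latter 4 becoming 2 without doxycycline replicate 1 or 2 or day 9 replicate 3. NME1, a nucleoside diphosphate kinase, fell by 0.75 ± 0.09 at day 6 and rose by 0.54 ± 0.09 at day 9, whereas AK3, a mitochondrial kinase, rose by 0.63 ± 0.07 and fell by 0.36 ± 0.07.

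Of 12 breakdown genes, 2 rose and 2 fell at day 6, against 14.0% of all genes each way, and 1 rose and 3 fell at day 9, against 22.6% and 23.8%. The 2 rises at day 6 became 1 without any 1 of 5 libraries (all 3 with doxycycline and day 6 replicates 1 and 3), and the 2 falls became 1 without any 1 of the 6. NT5M, a mitochondrial nucleotidase, fell by 1.10 ± 0.12 at day 9 and ADA, adenosine deaminase, by 0.65 ± 0.09. Of 3 tested nucleoside transporters, SLC29A1 rose by 0.60 ± 0.05 and SLC29A3 by 0.66 ± 0.16 at day 9, and SLC29A2 fell by 0.50 ± 0.08. In the parental line without doxycycline, 3 of 9 deoxynucleotide, 5 of 14 salvage and 6 of 12 kinase genes fell and 1, 2 and 2 rose, against 18.4% of all genes that fell and 21.0% that rose. There the 3 became 5 without parental replicate 1 lacking doxycycline, the 5 became 8 without its replicate 2, and the 2 salvage rises became 1 without any 1 of 5 libraries (replicates 1 and 2 lacking doxycycline and all 3 given it).

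**Figure D5:**
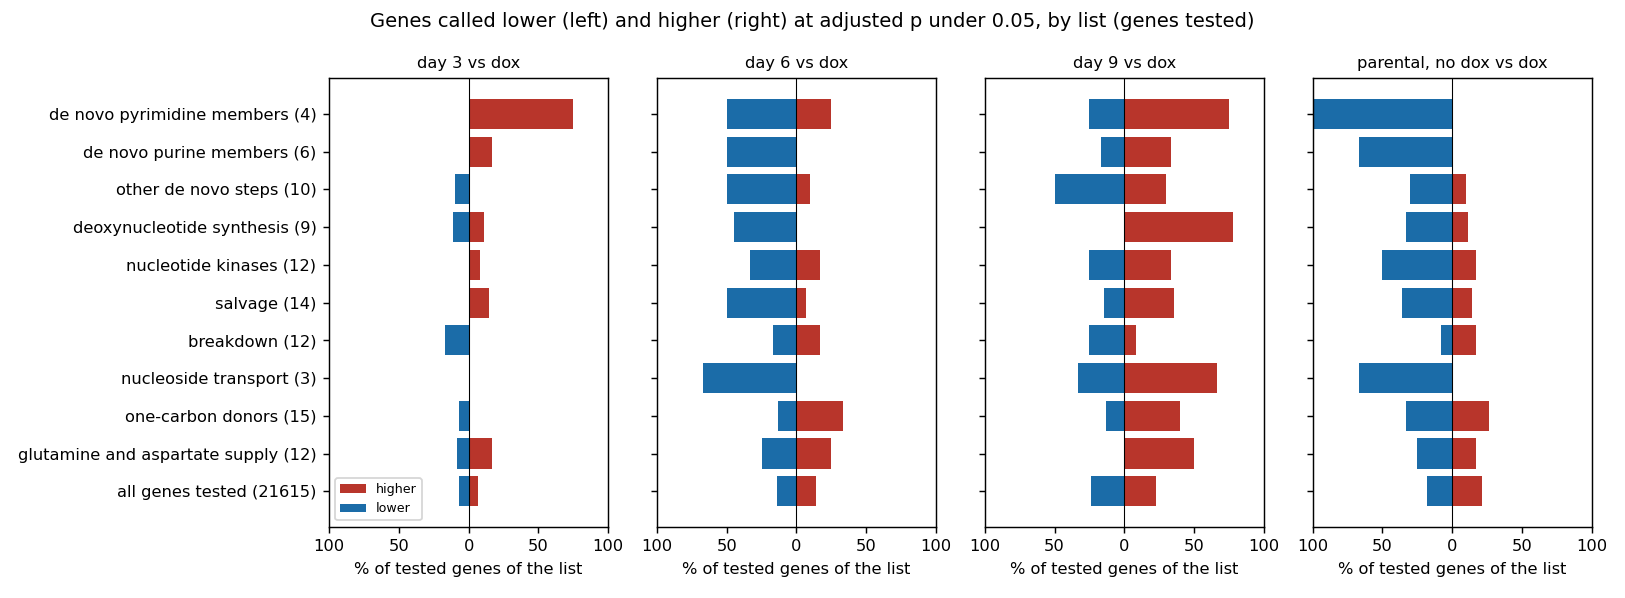
Share of the tested genes of each list (y axis, number tested in parentheses) called higher (right) or lower (left) at an adjusted p under 0.05, in percent (x axis), in 4 comparisons; the lowest bar is all 21615 genes. Deoxynucleotide synthesis had 7 of 9 genes higher at day 9, and all 4 pyrimidine members were lower in the parental line without doxycycline.

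Genes that supply the building blocks gave mixed calls. Of 15 one-carbon genes, 5 rose and 2 fell at day 6 and 6 rose and 2 fell at day 9, against 14.0% of all genes each way and 22.6% and 23.8%. The 5 became 2 without doxycycline replicate 2 or 3 or day 6 replicate 2 and 3 without day 6 replicate 1 or 3. The 2 falls at day 6 became 1 without any 1 of 5 libraries (doxycycline replicates 1 and 3 and all 3 of day 6), and the 2 falls at day 9 became 4 without day 9 replicate 3. SHMT2, which splits serine in mitochondria and so feeds the purine ring, was at 274 ± 17.0 CPM (SD, n = 3) with doxycycline, 318 ± 13.5 at day 3, 409 ± 14.7 on day 6 and 514 ± 92.4 at day 9. It rose by 0.58 ± 0.10 at day 6 and by 0.91 ± 0.10 at day 9 (adjusted p = 4.5e-07). ALDH1L1, which removes formyl groups from folate, fell by 1.93 ± 0.16 at day 9. Of 12 genes that supply glutamine and aspartate, 3 rose and 3 fell at day 6 and 6 rose and none fell at day 9, where SLC1A5, a glutamine transporter, rose by 0.56 ± 0.06 and SLC25A22, a mitochondrial glutamate carrier, by 0.77 ± 0.13. With library size alone the 3 rises at day 6 became 6. At day 9, 1 of the 12 fell without doxycycline replicate 3 or day 9 replicate 3. The same count fell with library size alone, without the low-count filter and after removal of the span and length trend. ASNS, which spends glutamine and aspartate to make asparagine, rose by 1.21 ± 0.19 at day 6 and was at -0.39 ± 0.20 at day 9 (adjusted p = 0.11).

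In the deleted line, MYC RNA was lowest at day 9 and highest at day 6. MYC was at 1190, 1197 and 995 CPM with doxycycline, 963, 863 and 904 CPM at day 3, 1572, 1793 and 1795 CPM at day 6 and 774, 733 and 645 CPM at day 9. Day 6 was above and days 3 and 9 were below the doxycycline libraries. MYC rose by 0.61 ± 0.11 at day 6 (adjusted p = 0.00037), fell by 0.65 ± 0.11 at day 9 (adjusted p = 5.8e-05) and was higher by 0.54 ± 0.11 without doxycycline in the parental line (adjusted p = 0.00056), while its -0.31 ± 0.11 at day 3 did not pass (adjusted p = 0.06). Among its partners and antagonists, MAX rose by 0.46 ± 0.07 and MXI1 fell by 1.07 ± 0.09 at day 9, and of the 11 transcription factors listed 4 rose and 4 fell then. The MYC protein was not measured, and a link between MYC and the enzyme genes was not tested.

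Likeness to each gene was read as Pearson's r of log2 CPM over the 18 libraries, among 10875 genes with a mean log2 CPM of at least 3, as a description with no test, since all points share 6 groups. CAD was most like DHX30 (0.979), POLE and TNPO2, and UMPS most like AARS2 (0.983), EXOC7 and CTPS1. CTPS1 was most like DDX23 (0.991), IPO4 and PFAS, and PFAS most like AARS2 (0.989), CTPS1 and DPH2. The closest genes to DHODH were FARS2 (0.89), NMNAT1 and TBCD. For PPAT they were CHM (0.924), OPA1 and MMP16, and for PAICS CNOT9 (0.98), COA4 and XRCC5, with no gene in common to the pair. GART was nearest to NSD1 (0.859), XRN2 and PARPBP, ATIC to DRG1 (0.94), PSMB2 and HARS1, and IMPDH2 to NAA50 (0.972), HIGD1A and THUMPD3.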

How the data were processed

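RNA of 18 libraries was measured by 151-bp paired-end sequencing, per the labels' protocols. The values deposited by the authors are whole-number counts per gene without normalization, per the file headers. Of tools, the submitters' processing notes list HISAT2, featureCounts, Subread, DESeq2, SAMtools and cutadapt 2.3, and as build GRCh38. The names of the count columns end in HISAT2_RF, but no source used here gives the strand setting of the counting. Entries of 16 genes that had been split by line breaks were rejoined. Counts repeated for 6 libraries were the same in each copy and used once. All per-sample columns were matched to samples by name. No pair of replicates agreed within counting noise (chi-square per gene at least 4.97).

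Counts were tested with edgeR 4.0.16 (R 4.3.3): filterByExpr by group, trimmed-mean scaling, 1 mean per group over all 18 libraries, glmQLFit and glmQLFTest, and Benjamini-Hochberg adjustment over 21615 genes. The procedure was also run on simulated counts, for the day 9 comparison alone. Its outcome is not given here, and it does not bear on the other comparisons. Alternatives were relative log expression factors, library size alone, no low-count filter, a replicate block, only the groups compared, removal of the trend with gene span and exonic length (mgcv 1.9.3), DESeq2 1.42.0, and leaving out each library. Named genes were the 10 enzymes, up to 4 per list with the smallest p among those called at day 3, 6 or 9, the 3 genes most like each enzyme, SARS2, NEAT1 and MALAT1. The enzymes, lists and tests were chosen with earlier results of these data known.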

Additional observations from a re-analysis of the deposited data

Results flagged for a closer look

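For 16 pairs of gene and day, the change without doxycycline in the deleted line differed from that in the parental line by edgeR's interaction test; differences are log2, deleted minus parental line, and 18.6%, 5.49% and 24.4% of all genes had a higher change at days 3, 6 and 9. By edgeR, at day 3 these were CAD (1.00, adjusted p = 8.1e-07), UMPS (1.08, adjusted p = 3e-06), CTPS1 (0.84, adjusted p = 8.1e-06), PFAS (1.41, adjusted p = 3.7e-06), PAICS (0.46, adjusted p = 0.00031), IMPDH2 (0.30, adjusted p = 0.0028) and GART (0.26, adjusted p = 0.026). By edgeR, at day 6 they were CAD (0.73, adjusted p = 0.00029) and PFAS (0.52, adjusted p = 0.043). By edgeR, at day 9 they were CAD (1.32, adjusted p = 6.8e-09), UMPS (1.30, adjusted p = 8.5e-08), CTPS1 (1.10, adjusted p = 1.1e-07), PFAS (1.70, adjusted p = 1.1e-07), PAICS (0.50, adjusted p = 6.3e-05), ATIC (0.40, adjusted p = 0.0024) and IMPDH2 (0.25, adjusted p = 0.0063). The parental time without doxycycline is not given, so time and line cannot be told apart in these differences. No cause was tested.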

How the results depend on the processing

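Over 630 values of the 10 genes under 7 alternative settings, 609 kept their side of the threshold, 9 lost and 12 gained a call. Over 720 with 1 library left out, the numbers were 675, 39 and 6. No called value changed sign, but some that did not pass did, such as GART at day 6 (-0.04, and 0.03 with library size alone). With the replicate number as a block all 90 values kept their side of the threshold, and the calls over all genes were 2674 at day 3, 5834 at day 6 and 9888 at day 9, against 2889, 6070 and 10027 without it; the deviations of same-numbered libraries correlated at -0.077 to 0.07 in 45 pairs, so the numbers were not taken to pair the libraries. Calls over all genes were 6536 at day 3 and 7336 between the lines (main 4171) with only the groups compared. Leaving out 1 library gave 1088 to 2564 calls at day 3 (lowest without day 3 replicate 3), 3834 to 5855 at day 6 (lowest without doxycycline replicate 3), 2593 to 3846 between the lines and 1625 to 3301 for the day 6 interaction (main 2729). With library size alone, 64.3% of calls at day 6 were rises against 50.0%, and 38.6% against 48.7% between days 6 and 9, where the median of all genes moved from -0.02 to -0.15.

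The pyrimidine-minus-purine change is that of the mean level of each route's genes within a library, and "by medians" puts their median level in its place (not the median fold change). At day 3 it was 0.09 by medians and 0.08, 0.29, 0.07 and 0.22 without CAD, DHODH, UMPS or PFAS. At day 6 it was -0.21 by medians, -0.09 without CAD and 0.11 without UMPS. At day 9 it was 0.15, 0.51, 0.18, 0.19 and 0.40 without CAD, DHODH, UMPS, PPAT or PFAS. In the parental line it was -0.24 by medians and -0.26, -0.15, -0.32 and -0.16 without DHODH, PPAT, PFAS or ATIC. Between the lines it was 0.10 by medians, -0.07 without PFAS and 0.02 without IMPDH2, and it has no test. The cause of these shifts was not tested. Each of the 10 genes had at least 2278 counts per library, and each group had 3 libraries.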
